A study of Drosophila melanogaster with 12 samples.

Results

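A set of 7 nutrient signaling genes was followed across the 4 groups of the experiment: the insulin receptor *InR*, its substrate *chico*, the transcription factor *foxo*, the translational repressor *Thor*, the hormone gene *Akh*, its receptor *AkhR* and the zinc finger transcription factor *sug* (sugarbabe). They were chosen by symbol, and each of the 7 had exactly 1 row among the 13554 genes of the table. The arrays (Affymetrix Drosophila Gene ST) measured total RNA of 5-day-old males, with 10 whole flies pooled per sample, in 4 groups of 3 arrays. Control flies were *w1118*. The mutant stock, *dSTINGΔ* (a *dSTING* knockout in the sample labels), came from imprecise excision of a P-element upstream of *dSTING* and is homozygous for the deletion. All flies had regular food for 4 days, after which fed flies stayed on it and starved flies were kept for 24 hr in empty vials with moist paper. Each genotype is represented by 1 stock, so an effect of the deletion and any further difference between the stocks cannot be told apart. The excision took away the 5′ end of the coding region, and probe positions on the arrays are not given in the sources used here. The labels do not say whether the replicates came from separate cultures, so p-values measure only the spread between these samples. In whole bodies, fewer cells of a type and less RNA per cell cannot be told apart.

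Insulin-like peptides of the fly bind InR, which acts through the adaptor Chico and the kinases PI3K and Akt. Active Akt keeps FOXO out of the nucleus. When insulin signaling is low, FOXO enters the nucleus and activates genes that include *Thor*, which encodes the fly eIF4E-binding protein, and *InR* itself. AKH, a peptide hormone of the corpora cardiaca with a role similar to that of glucagon, acts through AkhR on the fat body to mobilize stored fat and glycogen. Sugarbabe is known as a sugar-induced transcription factor that works downstream of the sugar sensor Mondo (Mio on the array) and its partner Bigmax.

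Signals are log2 values normalized by the authors, so a difference of 1 is a 2-fold change, and levels of different genes are not compared with each other. Differences, their standard errors (SE) and 95% intervals were estimated with limma from the 12 arrays together, and each p was adjusted for the 13554 genes tested (Benjamini-Hochberg). A gene was called at an adjusted p under 0.05. The *dSTING* signal (CG1667 on the array) was 2.24 ± 0.23 in *dSTINGΔ* fed and 5.85 ± 0.42 in control fed flies (SD, n = 3 arrays), and 2.49 ± 0.11 and 5.37 ± 0.13 in the starved groups. Array medians lay between 5.82 and 5.88, and single arrays deviated from their group mean by 0.116 to 0.209 (root mean square over all genes, log2), with the highest value in control fed replicate 1. The median difference over all genes was between -0.01 and 0.02 in the 4 pairs of groups.

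None of the 7 genes was called between the genotypes in fed flies (12.5% of all genes were) and 6 of the 7 were called in starved flies (20% of all genes were). The change of the genotype difference with feeding, tested as an interaction, was called for *sug* and did not pass for the other 6 genes. In *dSTINGΔ* starved flies the insulin receptor branch (*InR*, *chico*, *foxo* and *Thor*) was higher than in control starved flies and *AkhR* and *sug* were lower. Starvation itself moved the same 6 genes in the mutant and 5 of them in the control, and *Akh* was not called in any comparison. The plot of signals by array shows this step-like order, which runs from fed to control starved to *dSTINGΔ* starved flies in the 6 genes.

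**Figure D1:**
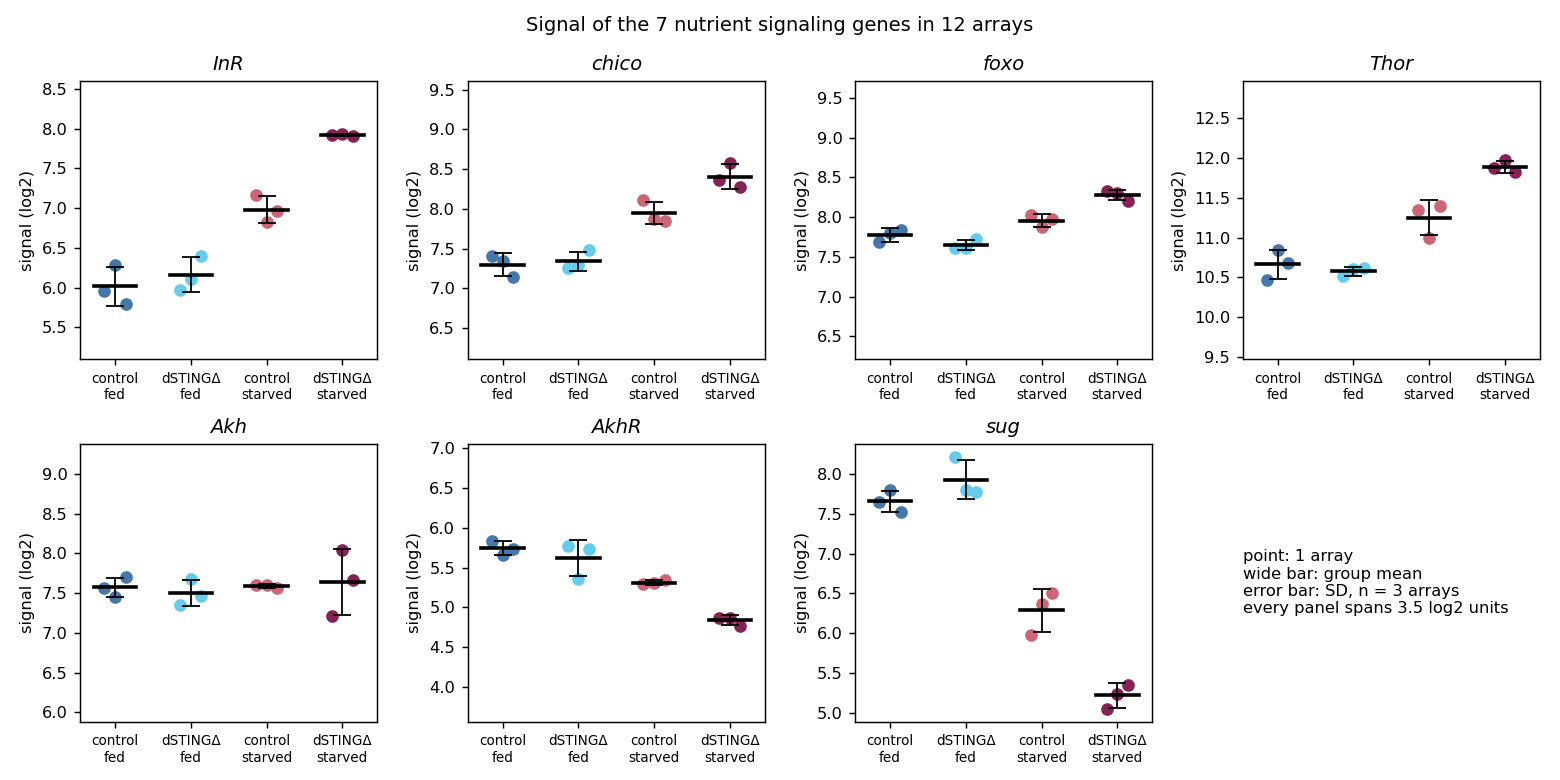
Log2 signal of each of the 7 genes (vertical axis, 3.5 log2 units in every panel) in the 4 groups, with 1 point per array, the group mean as a wide bar and the SD (n = 3 arrays) as an error bar. *InR* reached 7.91 to 7.93 in *dSTINGΔ* starved arrays against 6.82 to 7.16 in control starved arrays, and *sug* fell to 5.05 to 5.35 against 5.98 to 6.51.

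The insulin receptor gene *InR* had signals of 5.96, 6.29 and 5.80 in the control fed arrays and 5.97, 6.11 and 6.40 in the *dSTINGΔ* fed arrays. It had 7.16, 6.82 and 6.97 in the control starved arrays and 7.92, 7.93 and 7.91 in the *dSTINGΔ* starved arrays. The fed groups overlapped, every starved array lay above every fed array, and the mutant starved arrays lay above all others. *InR* rose 1.95-fold on starvation in control flies (log2 difference 0.96, SE 0.14, adjusted p = 0.0023) and 3.38-fold in mutant flies (1.76, SE 0.14, adjusted p = 5.1e-06), the 27th and 34th largest rises among all genes. It was 1.92-fold higher in starved mutant than in starved control flies (0.94, SE 0.14, adjusted p = 0.000503).

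Chico carries the signal from the receptor to PI3K. The gene *chico* had signals of 7.41, 7.35 and 7.14 in control fed, 7.25, 7.30 and 7.48 in *dSTINGΔ* fed, 8.11, 7.87 and 7.85 in control starved and 8.37, 8.58 and 8.27 in *dSTINGΔ* starved arrays. The fed groups overlapped, control starved arrays lay above both, and the mutant starved arrays lay above the control starved ones. The rise on starvation was 1.57-fold in control (log2 difference 0.65, SE 0.11, adjusted p = 0.00632) and 2.10-fold in mutant flies (1.07, SE 0.11, adjusted p = 4.14e-05). Between the starved groups *chico* was 1.38-fold higher in the mutant (0.46, SE 0.11, adjusted p = 0.0128). That call was lost without control starved replicate 2 (0.43, adjusted p = 0.0567) or without *dSTINGΔ* starved replicate 2 (0.38, adjusted p = 0.0624).

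The transcription factor gene *foxo* had the smallest differences of the 6 after starvation, between the genotypes and in either genotype. Its signals were 7.68, 7.80 and 7.84 in control fed, 7.61, 7.61 and 7.72 in *dSTINGΔ* fed, 8.03, 7.87 and 7.97 in control starved and 8.33, 8.30 and 8.20 in *dSTINGΔ* starved arrays. The control starved arrays lay above the control fed arrays by a narrow margin, and that difference was not called (log2 difference 0.18, 95% interval 0.00134 to 0.36, adjusted p = 0.169). In mutant flies *foxo* rose 1.55-fold on starvation (0.63, SE 0.08, adjusted p = 0.000176). It was 1.25-fold higher in mutants than in controls after starvation (0.32, SE 0.08, adjusted p = 0.0157), a call lost without control starved replicate 2 (adjusted p = 0.0768), *dSTINGΔ* starved replicate 1 (0.0671) or *dSTINGΔ* starved replicate 2 (0.0571).

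*Thor*, the FOXO target that binds the cap-binding factor eIF4E and restrains translation, had signals of 10.47, 10.84 and 10.68 in control fed and 10.51, 10.60 and 10.61 in *dSTINGΔ* fed arrays. The starved arrays had 11.35, 10.99 and 11.40 in the control and 11.87, 11.97 and 11.83 in the mutant. Control starved replicate 2, at 10.99, was the starved array closest to the fed range, and no starved array overlapped it. *Thor* rose 1.50-fold on starvation in control (log2 difference 0.59, SE 0.12, adjusted p = 0.0115) and 2.49-fold in mutant flies (1.31, SE 0.12, adjusted p = 1.46e-05). In the starved groups it was 1.56-fold higher in the mutant (0.64, SE 0.12, adjusted p = 0.00252). The call in control flies was lost in a fit of the 6 control arrays alone (adjusted p = 0.0728) or without control starved replicate 1 (0.53, adjusted p = 0.0603).

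The hormone gene *Akh* had signals of 7.57, 7.45 and 7.70 in control fed and 7.35, 7.68 and 7.47 in *dSTINGΔ* fed arrays. In starved flies it had 7.60, 7.60 and 7.57 in the control and 7.21, 8.04 and 7.66 in the mutant. All groups overlapped, and the mutant starved arrays had the widest spread (SD 0.41, against 0.02 in control starved arrays). The difference between starved and fed flies was 0.02 in the control (95% interval -0.34 to 0.37, adjusted p = 0.957) and 0.14 in the mutant (-0.22 to 0.50, adjusted p = 0.631), and between the starved genotypes it was 0.05 (-0.31 to 0.41, adjusted p = 0.876). These intervals are not adjusted for the number of genes, and differences within them are compatible with the data of 3 arrays per group.

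Its receptor gene *AkhR* moved down. The signals were 5.84, 5.66 and 5.74 in control fed, 5.77, 5.36 and 5.73 in *dSTINGΔ* fed, 5.29, 5.30 and 5.34 in control starved and 4.87, 4.87 and 4.77 in *dSTINGΔ* starved arrays. No starved array overlapped the fed arrays, although *dSTINGΔ* fed replicate 2, at 5.36, lay just above the control starved range. *AkhR* fell 1.35-fold on starvation in the control (log2 difference -0.43, SE 0.11, adjusted p = 0.0241) and 1.72-fold in the mutant (-0.78, SE 0.11, adjusted p = 0.000231), and it was 1.39-fold lower in the starved mutant than in the starved control (-0.47, SE 0.11, adjusted p = 0.00769). The fall in control flies was not called with the 6 arrays alone (adjusted p = 0.0567), without control fed replicate 3 (0.0659), without control starved replicate 1 (0.0848) or without control starved replicate 2 (0.0742).

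Of the 7 genes, *sug* had the largest changes. It had signals of 7.65, 7.80 and 7.53 in control fed and 8.22, 7.80 and 7.78 in *dSTINGΔ* fed arrays, with 1 mutant array above and the others within or near the control range. It had 5.98, 6.37 and 6.51 in control starved and 5.05, 5.24 and 5.35 in *dSTINGΔ* starved arrays, and these 2 groups overlapped neither each other nor the fed arrays. The fall on starvation was 2.58-fold in the control (log2 difference -1.37, SE 0.15, adjusted p = 0.000515) and 6.58-fold in the mutant (-2.72, SE 0.15, adjusted p = 6.22e-07), the 60th and 17th largest falls among all genes. In starved flies *sug* was 2.10-fold lower in the mutant (-1.07, SE 0.15, adjusted p = 0.000398). *CG13319*, a gene that overlaps *sug* in the RefSeq annotation, fell by 0.41 on the log2 scale in the control and by 0.42 in the mutant, and between the starved genotypes it had 0.15 (adjusted p = 0.367). *InR* and *chico* overlap annotated non-coding RNA genes that were not analysed here.

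**Figure D2:**
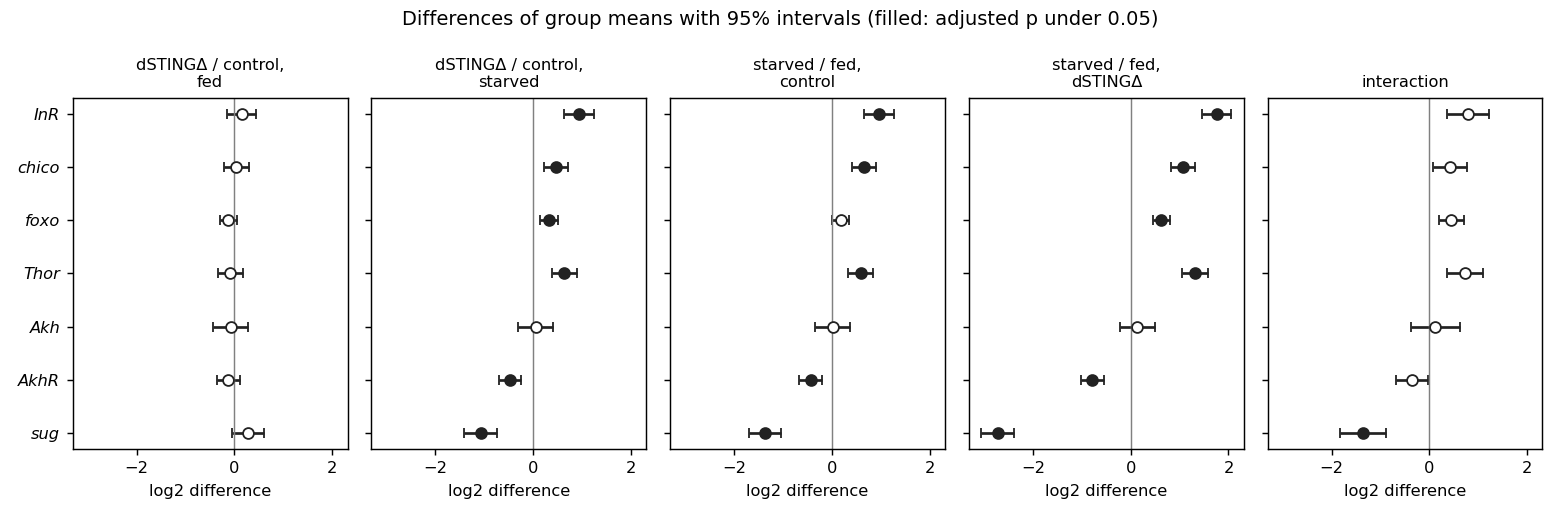
Differences of group means on the log2 scale (horizontal axis) with 95% intervals for the 7 genes in the 4 comparisons and for the interaction, from the limma model of 12 arrays, with filled points at an adjusted p under 0.05. Every interval spans 0 in fed flies, 6 genes are filled between the starved genotypes, and only *sug* (-1.35) is filled for the interaction.

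Read against all genes, 0 of the 7 members were called between the genotypes in fed flies, where 12.5% of the 13554 genes were called (6.2% higher and 6.26% lower), and 0 had an unadjusted limma p under 0.05. The differences ran from -0.13 for *foxo* (95% interval -0.31 to 0.05) to 0.28 for *sug* (-0.06 to 0.61), and none of the 7 separated the genotypes without overlap, as 28.2% of all genes did. Between the starved genotypes 4 members were higher (9.01% of all genes) and 2 lower (10.9%), in all 6 of 7 against 20% of all genes. The same 6 did not overlap between these groups, against 42.6% of all genes. In control flies 5 of 7 were called on starvation, 3 higher (5.68% of all genes) and 2 lower (5.55%), against 11.2% in either direction, and 6 did not overlap, *foxo* included, against 28.4%. In mutant flies 6 of 7 were called, 4 higher (7.3%) and 2 lower (9.52%), against 16.8% in either direction, and 6 did not overlap, against 38.8%. With a fold change over 1.4 required as well, *InR*, *Thor* and *sug* remained called between the starved genotypes. The members were chosen with earlier results of these data known, so these counts describe them and do not test them as a set.

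For each gene the 4 group means also have an order. In *InR*, *chico*, *foxo* and *Thor* the 2 fed groups were lowest and not distinguished, control starved was next and *dSTINGΔ* starved highest, and each step above the fed groups was called except control fed to control starved in *foxo*. Control starved flies also differed from *dSTINGΔ* fed flies, the remaining pair of groups, in *InR* (log2 difference 0.82, adjusted p = 0.0017), *chico* (0.61, adjusted p = 0.00327), *foxo* (0.31, adjusted p = 0.0248), *Thor* (0.68, adjusted p = 0.00227) and *sug* (-1.65, adjusted p = 2e-05). For *AkhR* that pair was not called (-0.31, adjusted p = 0.0707), nor was it for *Akh* (0.09, adjusted p = 0.788). This pair was added after the values were seen and differs in both genotype and feeding. The share of all genes called in it was not counted.

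Whether starvation moved a gene by a different amount in the 2 genotypes was tested with the interaction term. The *sug* response differed: it was 1.35 log2 units more negative in the mutant (SE 0.22, 95% interval -1.82 to -0.88, adjusted p = 0.0125), the only call among the 7 genes in a comparison where 1.33% of all genes were called (0.59% higher and 0.738% lower). The other responses were also larger in the mutant, by a ratio of log2 differences of 1.82 for *InR*, 1.65 for *chico*, 2.23 for *Thor* and 1.80 for *AkhR*. The ratio of 3.49 for *foxo* divides by a control response of 0.18 that was not called (95% interval 0.00134 to 0.36), so it is poorly determined. The interactions of these genes did not pass. They were 0.79 for *InR* (SE 0.20, adjusted p = 0.0682), 0.73 for *Thor* (SE 0.17, adjusted p = 0.0575) and 0.45 for *foxo* (SE 0.12, adjusted p = 0.0759). For *chico* the interaction was 0.42 (SE 0.16, adjusted p = 0.202) and for *AkhR* -0.35 (SE 0.15, adjusted p = 0.254). The unadjusted limma p was under 0.05 in 6 of the 7 genes, all but *Akh*. The largest of these, 0.0382 for *AkhR*, ranked only 2034th by p among all genes. A p under 0.05 was therefore common in this comparison. The share of all genes with one was not counted, so such interaction counts, here and for the lists below, have no background. Without control fed replicate 1, *InR* (adjusted p = 0.0423), *foxo* (0.0357) and *Thor* (0.0212) were called as well, and over all genes 934 were called in place of 180. *InR* was also called without control fed replicate 3 (0.0476) and *Thor* without control starved replicate 3 (0.0482).

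**Figure D3:**
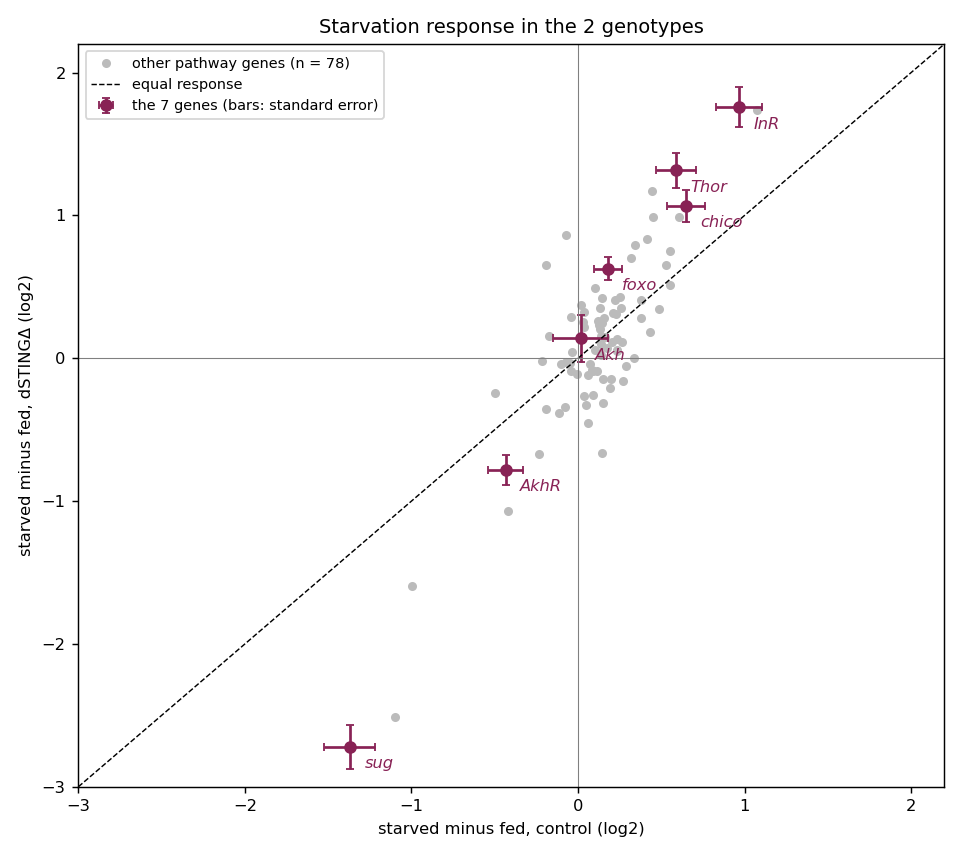
Log2 difference between starved and fed flies in the control (horizontal axis) and in *dSTINGΔ* (vertical axis) for the 7 genes, with standard errors as bars, and for 78 other genes of the 5 pathway lists, with equal response as a dashed line. The 2 axes share no arrays. *InR* (0.96 and 1.76), *Thor* (0.59 and 1.31) and *sug* (-1.37 and -2.72) lie farther from 0 in the mutant than in the control.

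Among the kinases and regulators below and around the receptor, 3 of 21 genes of the insulin and TOR kinase chain were higher and 0 lower in starved mutant than in starved control flies (median log2 difference 0.11, and 0.00175 over all genes), where 9.01% of all genes were higher and 10.9% lower, so the list does not stand out by its count. The 3 were *Pdk1*, the kinase that activates Akt (0.67, SE 0.10, adjusted p = 0.000661), the adaptor *Lnk* (0.48, adjusted p = 0.00384) and *REPTOR* (CG13624 on the array, 0.47, adjusted p = 0.0216), a transcription factor held back by TOR. Starvation raised 1 and lowered 0 of the 21 in control flies (5.68% and 5.55% of all genes), where the PI3K catalytic subunit gene *Pi3K92E* rose (0.55, adjusted p = 0.00958). It raised 8 and lowered 1 in mutant flies (7.3% and 9.52% of all genes). The rises with the smallest p there were those of *Pdk1* (0.80), *Lnk* (0.70) and *REPTOR* (0.83), while the regulatory subunit gene *Pi3K21B* fell (-0.35, adjusted p = 0.0114). In fed flies 1 of 21 was higher in the mutant, *Sdr* (0.77, adjusted p = 0.00295), which encodes a secreted decoy of the insulin receptor, and 0 were lower (6.2% and 6.26% of all genes). None had a called interaction, and 6 had an unadjusted limma p under 0.05.

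Of 11 other genes reported as FOXO targets, 4 were higher and 1 lower in starved mutant than in starved control flies (median log2 difference 0.21), against 9.01% higher and 10.9% lower among all genes. *NLaz*, a secreted lipocalin (0.45, adjusted p = 0.00447), the growth regulator *Myc* (dm on the array, 0.42, adjusted p = 0.0159) and the fat body lipase *bmm* (0.46, adjusted p = 0.026) were higher together with *Lnk*, and the lipase *Lip4* was lower (-1.06, adjusted p = 0.00266). Starvation raised 2 of the 11 in control flies, *bmm* (1.08, adjusted p = 0.000914) and *Myc* (0.45, adjusted p = 0.0218), and lowered 0 (5.68% and 5.55% of all genes). In mutant flies it raised 6 and lowered 1 (7.3% and 9.52% of all genes). *bmm* rose by 1.74 (adjusted p = 3.73e-06), *Myc* by 0.99, and *Pepck*, an enzyme of gluconeogenesis, by 1.17 (adjusted p = 0.00026), while *srl*, the fly PGC-1 homolog, fell (-0.66, adjusted p = 0.0395). In fed flies *Lip4* was lower (-0.69, adjusted p = 0.0421) and 0 of 11 were higher (6.26% and 6.2% of all genes). None had a called interaction, and 6 had an unadjusted limma p under 0.05.

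Around *Thor*, the list of cap-dependent translation had 11 measured genes, of which 3 were higher and 0 lower in mutants than in controls after starvation (median log2 difference 0.19), against 9.01% higher and 10.9% lower among all genes (20% in either direction). They were the testis-expressed *eIF4E-3* (0.59, adjusted p = 0.00371), *Lk6*, a kinase that phosphorylates eIF4E (0.38, adjusted p = 0.0119), and *Gcn2*, a kinase that senses amino acid shortage (0.34, adjusted p = 0.0481). *Lk6* was the only gene of the list called on starvation in control flies (0.53, adjusted p = 0.006, with 11.2% of all genes called) and also rose in mutant flies (0.65, adjusted p = 0.000306), where 2 genes rose and 1 fell (7.3% and 9.52% of all genes). In fed flies 1 gene, *eIF4E-3*, was higher (0.45, adjusted p = 0.0265) and 0 lower (6.2% and 6.26% of all genes). None had a called interaction, and 1 had an unadjusted limma p under 0.05.

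Of 21 genes of AKH signaling and fat mobilization, 1 was higher and 2 were lower in the starved mutant than in the starved control (median log2 difference 0.00793). Among all genes 9.01% were higher and 10.9% lower there, so the list does not stand out by its count. The higher gene was *bmm*, and the lower ones were *Lsd-1*, the perilipin that coats lipid droplets and is a target of AKH signaling (-2.20, SE 0.23, adjusted p = 3.89e-05), and *olf186-F*, the store-operated calcium channel Orai (-0.35, adjusted p = 0.0179). Starvation raised 3 and lowered 1 of the 21 in control flies (5.68% and 5.55% of all genes). *bmm* and *Gprk2*, a G protein-coupled receptor kinase (0.48, adjusted p = 0.0241), rose with *Lst* (CG8317 on the array, 0.61, adjusted p = 0.00729), the limostatin peptide of the AKH-producing cells, and *Lsd-1* fell (-1.10, adjusted p = 0.0126). In mutant flies 3 rose and 2 fell (7.3% and 9.52% of all genes), with *Lst* at 0.99 (adjusted p = 5.91e-05), *Lsd-1* at -2.51 (adjusted p = 1.45e-05) and *GlyP*, glycogen phosphorylase, at -0.38 (adjusted p = 0.0214). In fed flies 0 were higher and 2 lower (6.2% and 6.26% of all genes), *Lst* (-0.49, adjusted p = 0.013) and *Lsd-1* (-0.79, adjusted p = 0.0415). None had a called interaction, and 6 had an unadjusted limma p under 0.05.

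Upstream of *sug*, the genes of both subunits of the sugar sensor were higher in the starved group where *sug* was lower. *Mondo* (Mio on the array) was higher in starved mutant than in starved control flies (0.48, SE 0.10, adjusted p = 0.00411), and so was *bigmax* (0.71, SE 0.14, adjusted p = 0.0042). *Mondo* rose on starvation in control (0.55, adjusted p = 0.00651) and mutant flies (0.75, adjusted p = 0.000174). *bigmax* rose in mutant flies (0.86, adjusted p = 0.00105) and had a called interaction (0.93, SE 0.20, adjusted p = 0.0471). *cbt*, a sugar-induced repressor downstream of Mondo, fell in mutant flies (-1.07, adjusted p = 4.25e-05). Its mean was also lower in control starved (7.43) than in control fed flies (7.85), and these arrays did not overlap.

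Among the 17 genes of sugar sensing and sugarbabe-linked enzymes as a list, 4 were higher and 4 lower in mutants than in controls after starvation (median log2 difference 0.02), against 9.01% higher and 10.9% lower among all genes. The lower ones included the gut lipase *mag* (-1.09, adjusted p = 0.000322) and fatty acid synthase *FASN1* (CG3523 on the array, -0.48, adjusted p = 0.00396). Starvation raised 2 and lowered 3 in control flies (5.68% and 5.55% of all genes) and raised 4 and lowered 4 in mutant flies (7.3% and 9.52%). *mag* fell in both genotypes (adjusted p = 0.00292 and 1.8e-05), and ATP citrate lyase *ATPCL* fell in the mutant (-0.67, adjusted p = 0.000217). In fed flies 2 were higher and 1 was lower (6.2% and 6.26% of all genes). The higher ones were the amylases *Amy-p* (0.71, adjusted p = 0.0267) and *Amy-d* (0.48, adjusted p = 0.0158), near-identical copies whose signals may be shared. *Amy-d* had means of 1.66 in control fed and 2.14 in *dSTINGΔ* fed flies, near the lowest value of all genes (1.11). *Amy-p* had 8.27 and 8.98. The lower gene was *Desat1* (-0.26, adjusted p = 0.0479). *bigmax* was the only gene of this list with a called interaction, and 7 had an unadjusted limma p under 0.05.

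Genes with the most similar profile were sought by the root mean square difference of mean-centred log2 signals over the 12 arrays, which is a description without a test. For *InR*, whose signal spanned 2.13 log2 units, they were *Lpin* (0.224), *Cct1* (0.227) and *Rel* (0.231). *Thor* and *chico* were the 12th and 22nd nearest of all genes to *InR*, and *foxo* was the 301st. The nearest genes to *Thor* were *Sclp* (0.124), *CG9547* (0.148) and *trbl* (0.155), with *chico* in the 9th place (0.175). *InR* was in the 105th and *foxo* in the 170th place. For *chico* the nearest were *RhoGAP68F* (0.0875), *CG34126* (0.106) and *Fem-1* (0.108), with *Thor* 28th, *foxo* 200th and *InR* 505th. *foxo* was nearest to *Cyp9b1* (0.0682), *put* (0.0739) and *CG4364* (0.0743), and *AkhR* to *Tapdelta* (0.111), *CG9302* (0.119) and *Ent2* (0.119). Around *foxo* the other genes of its branch were far off, with *chico* 4646th, *Thor* 7552nd and *InR* 12532nd. For *sug*, which spanned 3.17 log2 units, the nearest were *CG6295* (0.284), *CG10516* (0.292) and *CG18258* (0.367).

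Fat body is the tissue that responds to AKH, and the summed signal of its markers fell with starvation as *AkhR* and *sug* did. The summed signal of 7 fat body markers ranged from 11.3 to 11.4 in control fed, 11.4 to 11.8 in *dSTINGΔ* fed, 10.2 to 10.7 in control starved and 9.45 to 9.79 in *dSTINGΔ* starved arrays (log2 of the sum). This sum of unlogged signals depends most on *apolpp*, which had the highest mean of the 7 markers in every group. That mean was 10.75 in control fed and 8.74 in *dSTINGΔ* starved flies. Starvation lowered 3 of the 7 markers in control and 4 in mutant flies (5.55% and 9.52% of all genes) and raised 0 (5.68% and 7.3%). The falls were led by the storage protein *Lsp2* (-2.89 and -4.26), the satiety factor *fit* (-3.39 and -2.86) and the lipoprotein gene *apolpp* (Rfabg on the array, -0.59 and -1.92). Between the starved genotypes 1 of 7, *apolpp*, was lower (-1.42, adjusted p = 4.41e-06) and 0 were higher, against 10.9% and 9.01% of all genes. In fed flies 1 marker was higher and 1 lower in the mutant (6.2% and 6.26% of all genes). The larval marker *Fbp1* stayed at 1.91 to 2.13 in the group means, near the lowest value of the table (1.11). *Fbp2* (2.98 to 3.23) and *Yp1* (3.37 to 3.59) were also low. The part of fat body RNA in the changes of *AkhR* and *sug* was not tested.

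Other tissues were followed with 7 further marker lists. All 6 accessory gland genes fell on starvation in mutant flies and 4 in control flies (9.52% and 5.55% of all genes fell). Of the 6, 3 were lower in the starved mutant than in the starved control (10.9% of all genes). The summed signal of the 6 was 12.3 to 12.8 in fed, 11.65 to 11.88 in control starved and 11.03 to 11.65 in mutant starved arrays. Of 6 hemocyte genes, 4 were lower in the mutant in both feeding states, against 6.26% of all genes in fed and 10.9% in starved flies. Their summed signals in mutant against control arrays were 8.18 to 8.30 against 8.72 to 9.03 in fed and 7.85 to 8.01 against 8.54 to 8.61 in starved flies. Between the starved genotypes, where 9.01% of all genes were higher and 10.9% lower, 1 of 6 gut genes was higher and 2 were lower. There 0 of 6 muscle genes were higher and 2 lower, and 1 of 6 testis genes was higher and 0 lower. The summed testis signal was 12.03 to 12.06 in mutant starved and 11.64 to 11.81 in control starved arrays. In fed arrays it was 11.43 to 11.85 in the control and 11.67 to 11.95 in the mutant. None of 5 neuronal genes was called between the starved genotypes. Of 6 peptide genes of the corpora cardiaca and insulin-producing cells, *Akh* included, 1 was higher and 1 lower. The part of these tissues in the results on the 7 genes was not tested.

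**Figure D4:**
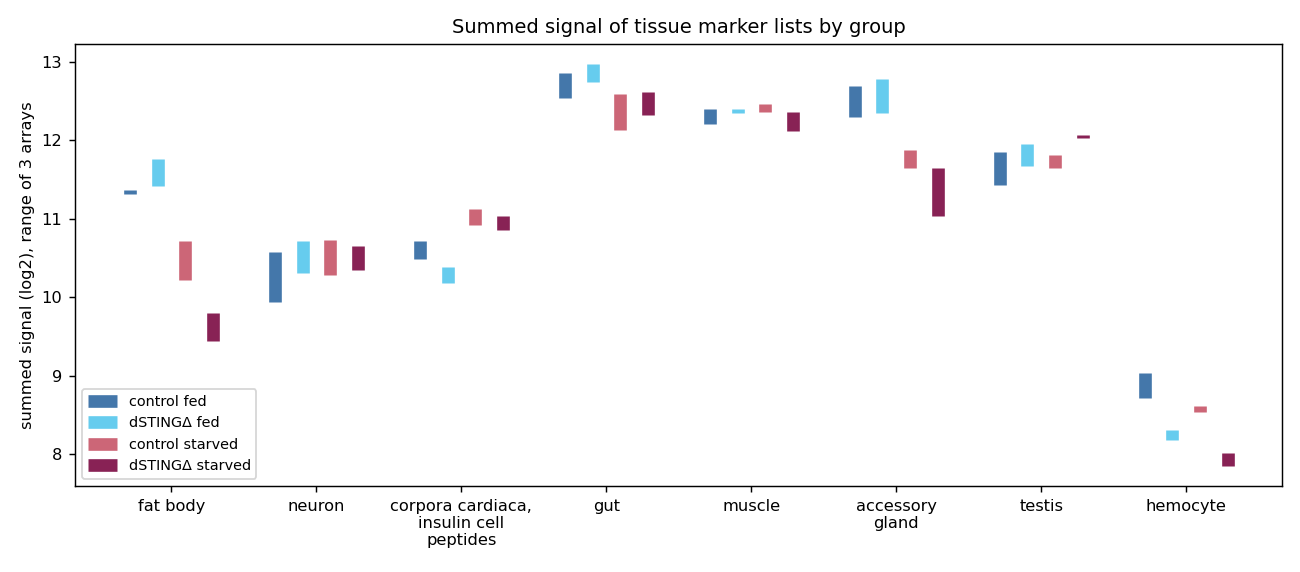
Summed signal (log2 of the sum of unlogged signals, vertical axis) of 8 tissue marker lists, with each bar spanning the lowest to the highest of the 3 arrays of a group. The fat body bars run from 11.3 to 11.8 in fed flies down to 9.45 to 9.79 in *dSTINGΔ* starved flies, and the accessory gland bars also fall with starvation.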

How the data were processed

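RNA from 12 samples (4 groups of 3) was hybridized by the authors to 1 array each. The authors deposited log2 values from robust multi-array averaging (RMA in affy 1.48.0, R 3.2.0, with an Entrez Gene probeset mapping), 1 per gene and array. RMA gives the arrays a common distribution, so a shift shared by most genes would not be seen. The deposited table also holds the authors' fold changes, p-values and clusters, which were not used. Its columns carry running array numbers in place of the labels' replicate numbers. Each of the 12 equals exactly 1 sample record of the same group within 0.0051, and values by replicate, leave-one-out fits and the replicate block use the log2 values of the sample records, rounded to 2 decimals. The labels do not say whether arrays of the same replicate number belong together, and the main fit treated the arrays as unpaired.

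Groups were compared with limma 3.58.1 in R 4.3.3 (8 residual and 4.50 prior degrees of freedom). The fit was also run on simulated data with independent noise and few changed genes, for the fed genotypes only. The interaction was not simulated. Missing list symbols were matched by Entrez identifier through RefSeq (Release 6), where 13263 of the 13554 genes had an entry. The members, the 5 pathway and 8 marker lists and the tests were chosen with earlier results of these data known. All 7 members are named, up to 4 called genes per list and comparison by p, and the 3 nearest profiles per called member. *Pi3K21B*, *srl*, the starved *bmm* difference, the mutant *bigmax* response and the single marker and peptide genes were chosen after their values were seen. The control means of *cbt* and the group means of the amylases were also added after they were seen. The alternatives were the 6 arrays compared alone, a replicate block, trended and robust moderation, array quality weights, median centring, only genes above the median signal, the sample records' values, each array left out and other thresholds.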

Additional observations from a re-analysis of the deposited data

Results flagged for a closer look

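The starvation response of *sug* differed between the genotypes. Its fall was 1.35 log2 units deeper in *dSTINGΔ* than in control flies (interaction -1.35, adjusted p = 0.0125 from limma), with means of 7.66 and 6.29 in control fed and starved flies and of 7.93 and 5.22 in *dSTINGΔ* fed and starved flies. The call held in all 18 alternative fits at a threshold of 0.05 (adjusted p from 0.00453 to 0.0463), and the difference stayed negative.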

How the results depend on the processing

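Of the 7 genes, 0 were called in fed flies under every alternative tried, and 6 on starvation in the mutant under every alternative except genes above the median signal, which leaves out *AkhR* and gave 5. Between the starved genotypes 6 were called, 3 with a fold over 1.4 required and 5 among genes above the median signal. With 1 array left out 4 to 6 were called. At an adjusted p under 0.01, *chico* (adjusted p = 0.0128 from limma) and *foxo* (0.0157) were not called there. In control flies 5 were called on starvation, 3 with the 6 arrays alone and 3 at an adjusted p under 0.01. Among genes above the median signal 4 were called in control flies, and 3 to 5 with 1 array left out. For the interaction 1 was called, 2 with trended and robust moderation, 5 with array quality weights, 2 with median centring, 4 among genes above the median signal, 0 at an adjusted p under 0.01, and 1 to 4 with 1 array left out. The replicate block gave 0, 6, 5, 6 and 1 calls in the 5 comparisons and changed no call among the 7 genes. Over all genes the interaction had 95 calls with that block against 180 without it, and 4 of 18 correlations between same-numbered arrays were above 0.1 (-0.451 to 0.37).

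Signs turned only in differences that were not called. With array quality weights *InR* had -0.0739, *chico* -0.00318 and *Akh* 0.0059 between the fed genotypes, and *Akh* had -0.0826 between the starved genotypes and -0.0885 for the interaction. With 1 array left out, and between the fed genotypes, *chico* ran from -0.0367 (control fed replicate 3 left out, and -0.025 with *dSTINGΔ* fed replicate 3 left out) to 0.0983, *Akh* from -0.163 to 0.00167 (without *dSTINGΔ* fed replicate 1) and *AkhR* ran from -0.202 to 0.00333 (without *dSTINGΔ* fed replicate 2). In the same leave-one-out fits *Akh* ran from -0.045 (without control fed replicate 2) to 0.08 on starvation in the control. Of these fits, the one without *dSTINGΔ* starved replicate 2 gave its lowest values between the starved genotypes (-0.155 to 0.26), on starvation in the mutant (-0.065 to 0.35) and for the interaction (-0.0817 to 0.333). The cause was not tested.

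Counts over all genes moved more. With 1 array left out they ran from 370 (without control starved replicate 1) to 3011 (without control fed replicate 1) on starvation in the control (1522 with all arrays; 488 without control fed replicate 3 and 556 without control starved replicate 2). They ran from 973 (without *dSTINGΔ* fed replicate 3) to 2159 between the fed genotypes (1690; 1082 without *dSTINGΔ* fed replicate 2, 1115 without control fed replicate 3). They ran from 1688 (without control starved replicate 2) to 3302 between the starved genotypes (2705; 1760 without *dSTINGΔ* starved replicate 2). For the interaction (180) they ran from 58 (without control starved replicate 2) to 934 (without control fed replicate 1). Array quality weights gave 4528, 2745, 4563 and 2096, and the 6 arrays alone gave 315 in the control and 923 between the fed genotypes. An adjusted p under 0.01 gave 320, 716, 1402 and 27, and 1311 on starvation in the mutant (2280).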

Other observations

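The peptides that act on the insulin receptor moved in several directions. *Ilp5* fell on starvation in control (log2 difference -1.26, adjusted p = 0.000695 from limma) and mutant flies (-0.94, adjusted p = 0.000618). *Ilp2* fell in control flies (-0.46, adjusted p = 0.018) and was higher in *dSTINGΔ* than in control flies, both fed (0.85, adjusted p = 0.000247) and starved (1.29, adjusted p = 6.8e-06). *Ilp3* was lower in the mutant in fed (-1.42, adjusted p = 3.89e-05) and starved flies (-0.91, adjusted p = 0.000661). *Dsk*, another peptide of the insulin-producing cells, fell on starvation in mutant flies (-0.49, adjusted p = 0.0172). None of these 4 genes had a called interaction.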
